A study of Mus musculus with 6 samples.

Results

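The double-knockout lines of mouse androgenetic haploid embryonic stem cells were compared with wild-type lines of the same kind for DNA methylation at CpG cytosines. The comparison used 5 of the 6 libraries of the series, 3 from double-knockout (DKO) and 2 from wild-type (WT) lines, chosen by their labels. All 5 lines have the C57BL/6 background and were grown on feeder cells in medium with 2i, kinase inhibitors used to hold embryonic stem cells undifferentiated. Androgenetic haploid cells come from embryos with a sperm genome and no egg genome, so they hold a single paternal set of chromosomes. DKO replicate 1 carries the name AGH-4 and was at passage 32, DKO replicate 2 carries the name OG3-2 and was at passage 31, and DKO replicate 3 carries the name AGH-2 and was at passage 29. WT replicate 1 is named AGH-OG3 and was at passage 31, and WT replicate 2 is named AGH-2 and was at passage 18. The titles of the DKO lines mark deletions of the H19 DMR and of the IG-DMR, and no deletion is marked on the WT lines. The sixth library, from round spermatids of the same strain, is used below only in the windows of the deleted elements. The labels do not say how many embryos or clones the lines come from, what share of the cells was haploid, or how many feeder cells were collected, so a p-value here speaks of the spread among the libraries, part of which may be technical.

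A differentially methylated region (DMR) of an imprinted domain is methylated on the chromosome from one parent and unmethylated on that from the other. The H19 DMR lies between H19, a noncoding RNA gene, and Igf2, which encodes a fetal growth factor. It is methylated on the paternal chromosome, where Igf2 is expressed, and unmethylated on the maternal chromosome, where it binds the insulator protein CTCF. The IG-DMR lies between Dlk1, which encodes a transmembrane protein of the Notch ligand family, and the noncoding RNA gene Meg3. It is also methylated on the paternal chromosome, where Dlk1, Rtl1 and Dio3 are expressed. Embryonic stem cells grown in 2i are known for low DNA methylation.

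Reduced representation bisulfite sequencing reads the cytosines next to CCGG, the site cut by the enzyme MspI, and of 32851 mouse promoter sequences of RefSeq (250 bases before to 50 after the start, assembly GRCm38.p6, the same as mm10) 52.8% hold that site on either strand, which reads the same on both. A total of 264362 positions had at least 10 reads in all 5 lines, of 1372337 with that depth in any of them. The 264133 on chromosomes 1 to 19 and X gave 31233 tiles of 500 bp with at least 3 such positions, and a tile's level is the percentage of methylated reads among its summed reads. Read counts summed over cytosines were between 197728785 and 205637856 in the DKO lines, against 227097459 and 255726544 in the WT lines. The median tile had 5 positions and at least 1132 reads in its shallowest line. Of the 35418 measured positions that fall within a RefSeq promoter sequence, 17823 were the C of a CG on the plus strand, 17595 that of the minus strand, and 0 lay outside a CG.

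Promoters within 1 Mb of the deleted elements show which bases these values rest on. The tiles at the Ascl2, Tssc4 and Dio3 promoters lie 386855, 486855 and 748006 bp from the element windows defined below. The tile at the Mrpl23 promoter lies 47147 bp away. In the sequences below, taken from RefSeq and printed 5′ to 3′ on the gene's strand, capitals mark a CG with a cytosine that had at least 10 reads in all 5 lines. For Meg3, where no cytosine reached that depth in all lines, capitals mark any CG with a read in any line. Mrpl23 encodes a mitochondrial ribosomal protein next to H19, Ascl2 a transcription factor of the placenta, Tssc4 a protein of the same chromosome 7 cluster, and Dio3 the deiodinase that inactivates thyroid hormone.
Mrpl23, chr7:142532782-142533081, plus strand: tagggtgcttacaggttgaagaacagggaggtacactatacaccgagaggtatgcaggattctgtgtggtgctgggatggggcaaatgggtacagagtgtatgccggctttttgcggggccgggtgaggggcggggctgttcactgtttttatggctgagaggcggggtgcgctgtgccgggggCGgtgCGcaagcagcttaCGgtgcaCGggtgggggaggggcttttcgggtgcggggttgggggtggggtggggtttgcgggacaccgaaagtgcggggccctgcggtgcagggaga
Ascl2, chr7:142969215-142969514, minus strand: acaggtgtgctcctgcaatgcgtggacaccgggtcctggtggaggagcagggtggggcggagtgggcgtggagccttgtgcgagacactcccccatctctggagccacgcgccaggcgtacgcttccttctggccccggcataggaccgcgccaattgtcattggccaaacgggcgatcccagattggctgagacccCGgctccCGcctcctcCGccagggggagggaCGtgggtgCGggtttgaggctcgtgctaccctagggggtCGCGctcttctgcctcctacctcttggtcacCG
Tssc4, chr7:143069118-143069417, plus strand: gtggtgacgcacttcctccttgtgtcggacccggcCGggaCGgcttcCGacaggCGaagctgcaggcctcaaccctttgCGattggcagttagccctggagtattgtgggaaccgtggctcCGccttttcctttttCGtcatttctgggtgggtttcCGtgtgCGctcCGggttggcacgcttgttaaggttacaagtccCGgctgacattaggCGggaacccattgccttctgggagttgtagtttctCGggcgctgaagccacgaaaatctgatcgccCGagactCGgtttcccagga
Dio3, chr12:110278980-110279279, plus strand: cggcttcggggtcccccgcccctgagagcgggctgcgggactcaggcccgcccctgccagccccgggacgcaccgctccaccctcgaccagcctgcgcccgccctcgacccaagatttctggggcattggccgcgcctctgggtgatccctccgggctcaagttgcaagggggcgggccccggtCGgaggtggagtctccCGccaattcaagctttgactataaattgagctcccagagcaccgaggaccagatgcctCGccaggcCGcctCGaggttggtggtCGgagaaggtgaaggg
Meg3, chr12:109540746-109541045, plus strand: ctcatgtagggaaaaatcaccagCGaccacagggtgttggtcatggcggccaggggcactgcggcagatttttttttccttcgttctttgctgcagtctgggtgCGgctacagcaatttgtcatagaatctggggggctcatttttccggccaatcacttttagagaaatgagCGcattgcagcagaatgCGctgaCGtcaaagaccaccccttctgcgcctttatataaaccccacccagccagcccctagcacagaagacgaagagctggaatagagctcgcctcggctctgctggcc
The 4 marked cytosines of Mrpl23 were at 0% in all 5 lines, from at least 368 reads in each. The 8 of Ascl2 were at 0.0390%, 0% and 0.0225% in DKO replicates 1, 2 and 3, against 4.71% and 0.0917% in WT replicates 1 and 2. The 15 of Tssc4 were at 0.0421%, 0.0381% and 0.0314% in the DKO lines, against 0.0170% and 0.0417% in the WT lines. Only Ascl2 had a line above 1%, and that line was WT replicate 1. The 6 of Dio3 were at 0%, 0.117% and 0% in the DKO lines, against 0% in both WT lines. The Meg3 promoter held 17, 12 and 0 reads in the DKO lines, against 0 in both WT lines, so it cannot be compared.

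The windows of the deleted elements held few or no reads in any line. The H19 DMR window was set from 2 to 4 kb beyond the 5′ end of H19 (chr7:142580147-142582146), and the IG-DMR window from 16 to 10 kb before Meg3 (chr12:109524996-109530995), since the labels do not give the borders of the deletions. In the H19 DMR window the DKO lines had 0 reads each, against 22 and 23 reads in the WT lines. Scaled to a library total of 1000000 (RPM), the 3 counts that a count of 0 allows are 0.0149, 0.0146 and 0.0152 RPM in DKO replicates 1, 2 and 3, against 0.0969 and 0.0899 RPM measured in the WT lines. None (0) of these WT reads was methylated, and they fell on 1 position in WT replicate 1 and 3 positions in WT replicate 2. Zero reads in the DKO lines go with the label, from a window that MspI fragments cover thinly in the WT lines too. A wider window, from 1 to 5 kb, added no read in any line, while 347 of 347 round spermatid reads there were methylated.

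In the IG-DMR window the 3 DKO lines had 0, 0 and 62 reads, against 196 and 0 reads in the WT lines, and 0 of these reads were methylated. All 62 reads of DKO replicate 3 lay on 2 positions, 57 of them on position 109525891, which is 895 bp inside the window's edge toward Dlk1 and also had 24 reads in WT replicate 1. A narrower window, from 15 to 11 kb before Meg3, held 0 reads in each DKO line, against 140 and 0 in the WT lines. WT replicate 2 without any read shows that 0 reads in this window do not by themselves mark a deletion. Position counts are summed over cytosines, and PCR copies of 1 molecule were not told apart, so limits at 0 reads cover counting error only.

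Cytosines measured in all 5 lines came as near as 4330 bp to the H19 DMR window on the side of H19 and 17754 bp on the side of Igf2. The nearest on the side of H19, at position 142575817 of chromosome 7 inside H19, was at 3.43%, 21.0% and 9.03% in DKO replicates 1, 2 and 3, against 20.6% and 1.26% in WT replicates 1 and 2. Each line there had between 1355 and 2391 reads. The lowest and the highest WT value enclosed all but 1 DKO value, that of DKO replicate 2. The nearest on the side of Igf2, at position 142599900, was at 0%, 30% and 5.88% in the DKO lines, against 0% in both WT lines, from 10 reads in DKO replicate 2 and 37 to 170 in the other lines. Next to the IG-DMR window the nearest lay 24452 bp toward Dlk1 and 14914 bp toward Meg3. The nearest toward Dlk1, at position 109500544 of chromosome 12, was at 0%, 2.74% and 0% in the DKO lines, against 25% and 19.3% in the WT lines, from 73 to 121 reads a line. The nearest toward Meg3, at position 109545909 within Meg3, was at 0.606%, 0% and 41.2% in the DKO lines, against 0% and 68.3% in the WT lines, from 52 to 767 reads. So the DKO lines lay below both WT lines at the position toward Dlk1 and overlapped them at the position toward Meg3. Single cytosines are a description here and carry no test.

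Within 1 Mb of the H19 DMR window, DKO and WT lines had nearly the same mean level from summed reads. Over 416 positions, summed reads gave 2.63%, 4.37% and 2.95% in DKO replicates 1, 2 and 3, against 4.06% and 2.62% in WT replicates 1 and 2. The mean was 3.32% ± 0.931 (SD, n = 3) in DKO lines and 3.34% ± 1.02 (SD, n = 2) in WT lines, a difference of -0.0256 percentage points (exact permutation test, two-sided p = 1). The 6 DKO minus WT differences between single lines ran from -1.44 to 1.76 points. Averaged over tiles there, the lines spread more, with 3.05%, 6.21% and 7.28% in DKO lines, against 8.32% and 3.35% in WT lines. The difference of the tile means was -0.320 points, with single differences from -5.26 to 3.93 (exact permutation test, two-sided p = 0.9). An exact test over 5 lines has 10 ways to place the labels, so no p below 0.1 can occur and none can pass 0.05. Of 42 tiles there, 27 had all 5 lines within 10 points of each other (64.3%), beside 60.3% of all tiles. Tiles below 10% in every line meet that limit by their level alone.

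Within 1 Mb of the IG-DMR window, the level from summed reads over 492 positions was 8.23%, 10.6% and 6.32% in the DKO lines, against 8.22% and 5.01% in the WT lines. The mean was 8.39% ± 2.15 (SD, n = 3) in DKO lines and 6.61% ± 2.27 (SD, n = 2) in WT lines, a difference of 1.77 points with single differences from -1.90 to 5.60 (exact permutation test, two-sided p = 0.4). The sign depended on the weights, since the mean over the 54 tiles there was 9.94% in DKO lines and 11.3% in WT lines, a difference of -1.38 points (exact permutation test, two-sided p = 0.8). Between 10 and 100 kb from the window the level over 65 positions was 10.1%, 13.3% and 7.66% in the DKO lines, against 16.3% and 10.9% in the WT lines (difference -3.23 points, exact permutation test, two-sided p = 0.4). Here too the DKO and WT lines overlapped, and no position within 10 kb of the window was measured in all 5 lines. Of the 54 tiles within 1 Mb, 24 had all 5 lines within 10 points (44.4%), beside 60.3% of all tiles.

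The same overlap held at every distance that was measured. From 10 to 100 kb around the H19 DMR window (56 positions), the DKO lines were at 2.02%, 2.63% and 0.157%, against 2.21% and 2.81% in the WT lines. On the rest of chromosome 7, beyond 5 Mb, the DKO lines were at 4.59%, 5.94% and 4.09%, against 6.47% and 3.10% in the WT lines. Beyond 5 Mb on chromosome 12 the DKO lines were at 4.40%, 5.32% and 3.96%, against 5.46% and 3.23% in the WT lines. WT replicate 1 was the highest and WT replicate 2 the lowest line in both of these remainders.

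**Figure D1:**
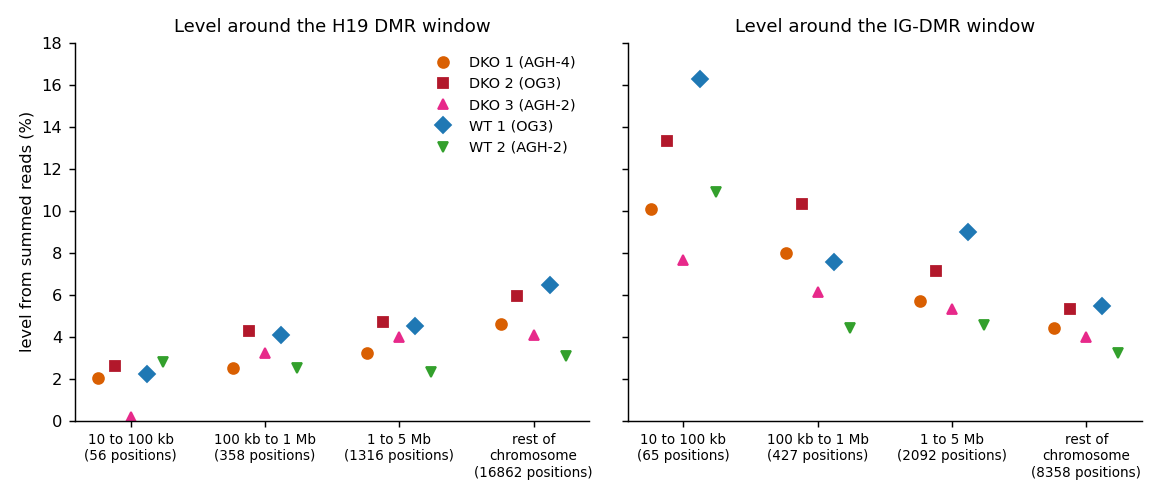
Methylation level from summed reads (%, vertical axis) by distance from the H19 DMR window (left) and the IG-DMR window (right), with 1 symbol per line and the number of positions under each distance. The 3 DKO and 2 WT lines overlap at all 4 distances of both panels, and 10 to 100 kb from the IG-DMR window the lines run between 7.66% and 16.3%.

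Tiles around both elements fell into unmethylated ones that were alike in all lines and partly methylated ones that differed from line to line. Near the H19 DMR window 22 of 42 tiles were below 1% in every line, among them 10 of the 14 that touch a promoter sequence. Near the IG-DMR window it was 14 of 54 tiles, among them 7 of 9 at promoters. Igf2 had a promoter tile (chr7:142659001-142659500) at 0.0502%, 0.200% and 0% in the DKO lines, against 0% and 0.0652% in the WT lines. A promoter tile 230 bp before Dio3 (chr12:110278501-110279000) was at 0% in all 5 lines. The next tile (chr12:110279001-110279500), which holds the start of Dio3, was at 0%, 0.117% and 0% in the DKO lines, against 0% in both WT lines.

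At 4 partly methylated tiles the DKO and WT lines did not overlap and their means lay over 10 points apart, and none of the 4 passed a test. DKO lines were above both WT lines without overlap in 4 of the 42 tiles near the H19 DMR window (9.52%) and below them in 3 (7.14%), where the same held for 8.94% and 5.99% of all tiles. Near the IG-DMR window it was 3 of 54 above (5.56%) and 1 below (1.85%). These shares lie near the background and are no result about the neighbourhoods. The 4 tiles were picked after their values were seen. Within Ifitm10, which encodes a membrane protein of the interferon-induced family, a tile 249647 bp from the H19 DMR window (chr7:142330001-142330500, 5 positions) was at 25.2%, 45.7% and 32.2% in DKO lines, against 7.98% and 2.08% in WT lines. Its difference of 29.3 points had a 95% interval from 6.38 to 52.3 in limma (adjusted p = 0.993) and an adjusted p of 1 in edgeR's quasi-likelihood test. A tile 12839 bp from Cdkn1c (chr7:143445001-143445500), an imprinted gene for an inhibitor of the cell cycle, was at 0.681%, 2.91% and 0.631% in DKO lines, against 4.26% and 18.9% in WT lines.
Near Dio3, a tile 19404 bp from the gene (chr12:110300501-110301000) was at 47.0%, 15.5% and 12.3% in DKO lines, against 9.96% and 4.87% in WT lines. A tile 80384 bp from Dio3os (chr12:110194501-110195000), the antisense noncoding gene beside Dio3, was at 10.2%, 3.90% and 0% in DKO lines, against 35.8% and 18.2% in WT lines. The 95% intervals of 2 of the 4 tiles, those near Cdkn1c and Dio3, contained 0. Over both neighbourhoods the lowest unadjusted edgeR p was 0.0401, and every adjusted p was 1.

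**Figure D2:**
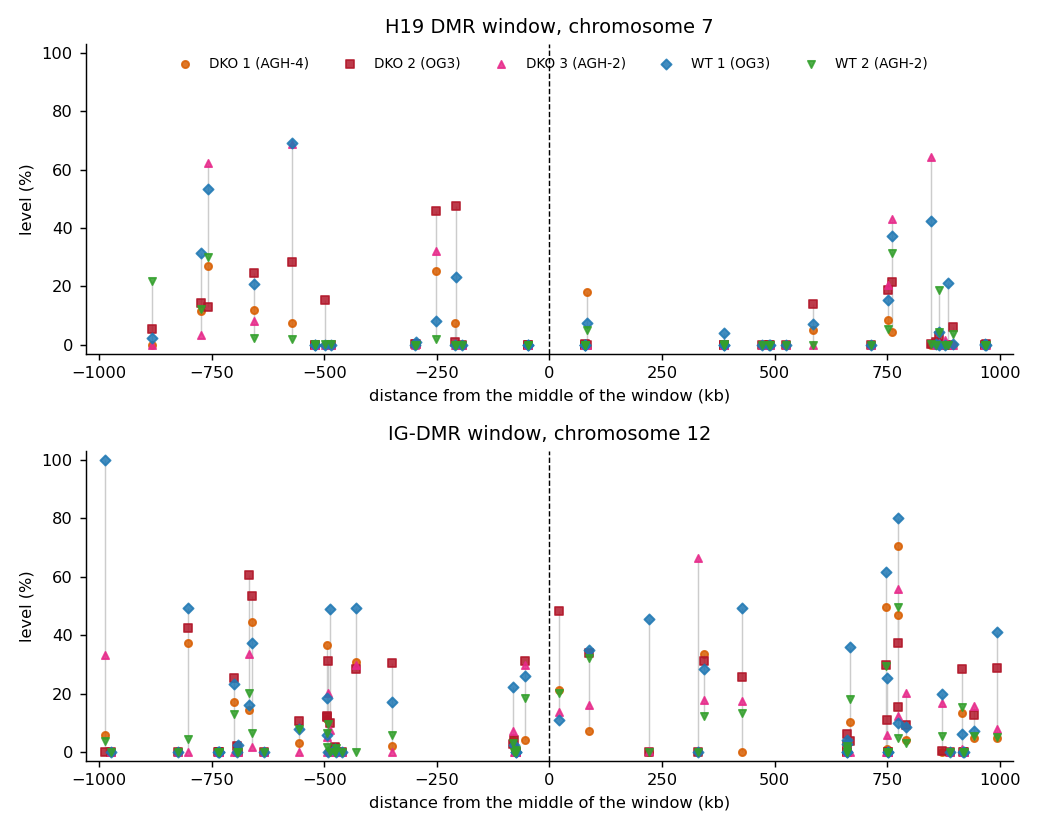
Methylation level (%, vertical axis) of each 500 bp tile within 1 Mb, by distance in kb from the middle of the H19 DMR window (top) and the IG-DMR window (bottom, dashed lines at 0), with 1 symbol per line and a grey bar over the 5 lines. Tiles near 0% hold all 5 lines together, while 2 tiles in the top panel and 4 in the bottom one span 50 points or more.

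Genes of the H19-Igf2 domain and its flank were mostly low in all lines. Levels were taken over the gene and 1 kb on each side, for 18 of 27 listed genes that had at least 3 positions measured in all 5 lines. All 5 lines lay within 10 points of each other in 15 of the 18 (83.3%), against 67.1% of 17118 genes. No line reached 10% at those 15 genes, so their low level alone put the lines within 10 points. The median DKO minus WT difference was 0.0255 points in the list and 0.0127 in all genes. H19 itself had 2 positions, at 9.41%, 28.8% and 11.7% in the DKO lines, against 24.6% and 8.25% in the WT lines. Igf2 (20 positions) was at 2.10%, 0.883% and 0.0292% in DKO lines, against 2.40% and 1.84% in WT lines. Kcnq1ot1, the noncoding RNA whose promoter is the control region of the neighbouring imprinted cluster, was between 0% and 0.0512% in all lines over 11 positions. DKO lines were above both WT lines in 3 of the 18 genes (16.7%), where 10.5% of all genes were, and below them in 1 (5.56%), where 5.98% were. Those 3 were Syt8, Th and Cars, and the lower one was Ascl2.
Syt8, which encodes a synaptotagmin, was at 35.3%, 27.7% and 56.0% in DKO lines, against 15.3% and 18.8% in WT lines, over 3 positions. Th, which encodes the rate-limiting enzyme of catecholamine synthesis, was at 8.43%, 31.9% and 28.6% in DKO lines, against 6.53% and 0.145% in WT lines, over 4 positions. For Th the lowest DKO line stood 1.90 points above the higher WT line, so absence of overlap there rests on a small gap. Cars and Ascl2 stayed below 1% in every line. Cdkn1c was at 0.0286%, 0.0139% and 1.57% in DKO lines, against 9.35% and 0.598% in WT lines, which overlap.

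Genes of the Dlk1-Dio3 domain and its flank had median levels of 3.59% over the DKO means and 5.36% over the WT means, against 0.771% and 1.64% in the H19-Igf2 list. Of 20 listed genes 18 had at least 3 positions, and all 5 lines lay within 10 points in 10 of these (55.6%), where 67.1% of all genes did. The difference between the lists was not tested. The median DKO minus WT difference was 0.0463 points. Dlk1 (22 positions) was at 0.0169%, 0.955% and 0.0362% in DKO replicates 1, 2 and 3, against 7.06% and 1.37% in WT replicates 1 and 2. It was the only gene of the list with all DKO lines below both WT lines (1 of 18, 5.56%, where 5.98% of all genes were), by 0.412 points at the nearest. Meg3 (9 positions) was at 19.7%, 48.1% and 25.1% in DKO lines, against 10.6% and 31.3% in WT lines. Rtl1, a paternally expressed gene derived from a retrotransposon, was at 34.9%, 54.9% and 13.2% in DKO lines, against 65.6% and 42.8% in WT lines, over 4 positions. Rian, a noncoding RNA gene that hosts small nucleolar RNAs, was at 28.7%, 21.3% and 12.5% in DKO lines, against 27.1% and 10.4% in WT lines. Meg3, Rtl1 and Rian thus had intermediate levels in most lines, with DKO and WT lines interleaved, and their windows overlap at the ends so that they can share positions.
Mirg, a host gene of microRNAs, was at 0%, 0% and 0.358% in DKO lines, against 45.6% and 0% in WT lines, so WT replicate 1 alone stood apart. Dio3 (12 positions) was at 0%, 0.0857% and 0% in DKO lines, against 0% in both WT lines. DKO lines were above both WT lines at Wars and Yy1 (2 of 18, 11.1%), where 10.5% of all genes were, so both shares of the list lie near the background. Wars, which encodes the tryptophan transfer RNA ligase, was at 23.7%, 42.3% and 25.9% in DKO lines, against 14.8% and 15.5% in WT lines, over 20 positions. Yy1, which encodes a zinc finger transcription factor, was below 1% in every line. The list's other genes with 3 positions overlapped between the groups.

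**Figure D3:**
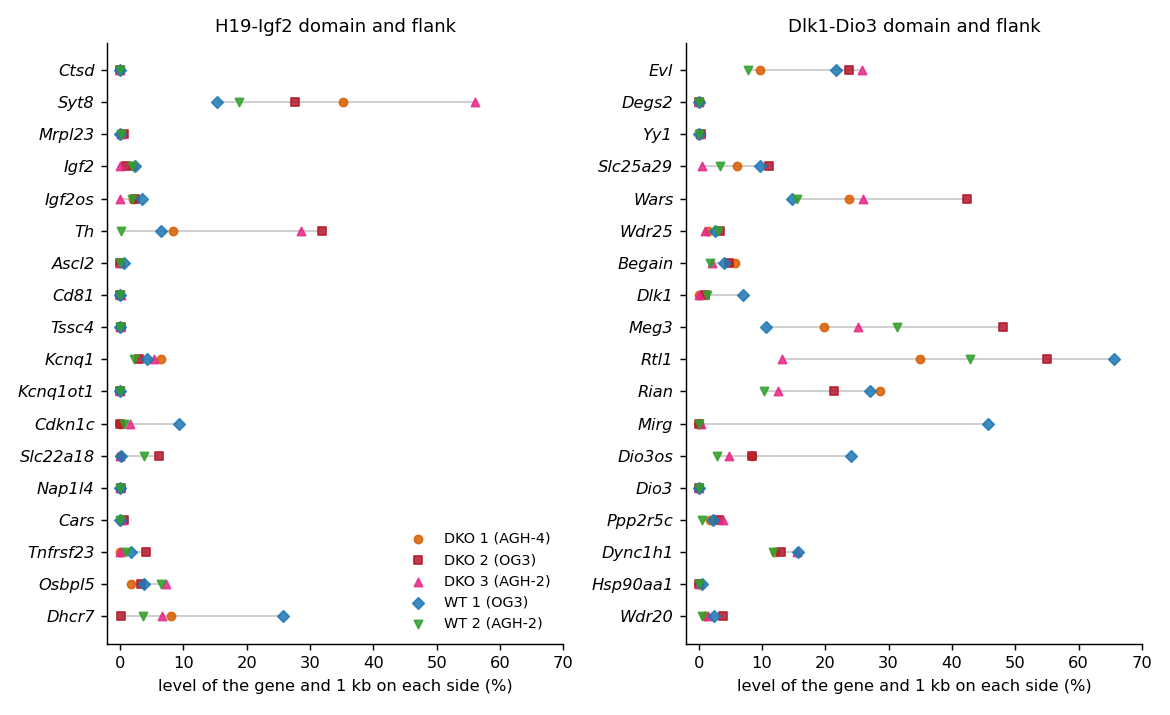
Methylation level (%, horizontal axis) over each gene and 1 kb on each side, in genomic order, for the 18 measured genes of the H19-Igf2 list (left) and the 18 of the Dlk1-Dio3 list (right), with 1 symbol per line. Most chromosome 7 genes sit near 0% in all lines, while Meg3 runs from 10.6% to 48.1% and Rtl1 from 13.2% to 65.6% with DKO and WT lines interleaved.

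Genome-wide, the 3 DKO lines lay between the 2 WT lines in mean level. The mean over the 264133 positions was 5.99%, 8.47% and 5.97% in DKO replicates 1, 2 and 3, against 9.45% and 4.85% in WT replicates 1 and 2. The difference was -0.341 points, with single differences from -3.48 to 3.62 (exact permutation test, two-sided p = 1). Averaged over tiles, DKO lines had 6.74%, 9.49% and 6.75% (7.66% ± 1.58, SD, n = 3), and WT lines 10.6% and 5.45% (8.01% ± 3.62, SD, n = 2). That difference was -0.347 points, from -3.82 to 4.04 between single lines (exact permutation test, two-sided p = 1). WT replicate 2, at passage 18, had the lowest level, and DKO replicate 2 and WT replicate 1, both at passage 31, had the highest. DKO replicate 1, at passage 32, and DKO replicate 3, at passage 29, lay between them. The part of passage was not tested. Between the lines that share a name, the tile mean of DKO replicate 2 minus WT replicate 1 (OG3) was -1.08 points, and that of DKO replicate 3 minus WT replicate 2 (AGH-2) was 1.30 points.

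WT replicate 1 was the highest and WT replicate 2 the lowest line on each of the 20 chromosomes measured. Mean differences by chromosome ran from -0.803 points on chromosome 14 to 0.0297 on chromosome 13, and the DKO mean was below the WT mean on 19 of them. Chromosome 7, which holds H19, had -0.182 points, and chromosome 12, which holds the IG-DMR, had -0.402. On 0 of the 20 chromosomes did the DKO and WT lines separate.

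Promoters, gene bodies and sequence outside genes kept their order in every line. The 7638 tiles that touch a RefSeq promoter sequence had means of 0.580%, 0.888% and 0.671% in DKO lines, against 1.06% and 0.461% in WT lines. The 15887 other tiles within genes had 7.65%, 10.8% and 7.56% in DKO lines, against 11.9% and 6.09% in WT lines. The 6796 tiles outside genes had 11.6%, 16.2% and 11.6% in DKO lines, against 18.2% and 9.63% in WT lines. In each class WT replicate 1 was highest and WT replicate 2 lowest. Tiles with few measured positions had the higher levels, as those with 3 or 4 positions were at 10.8%, 15% and 10.8% in DKO lines, against 16.9% and 8.76% in WT lines, and those with 10 or more were below 1% in all lines. Exons and introns were not assigned.

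**Figure D4:**
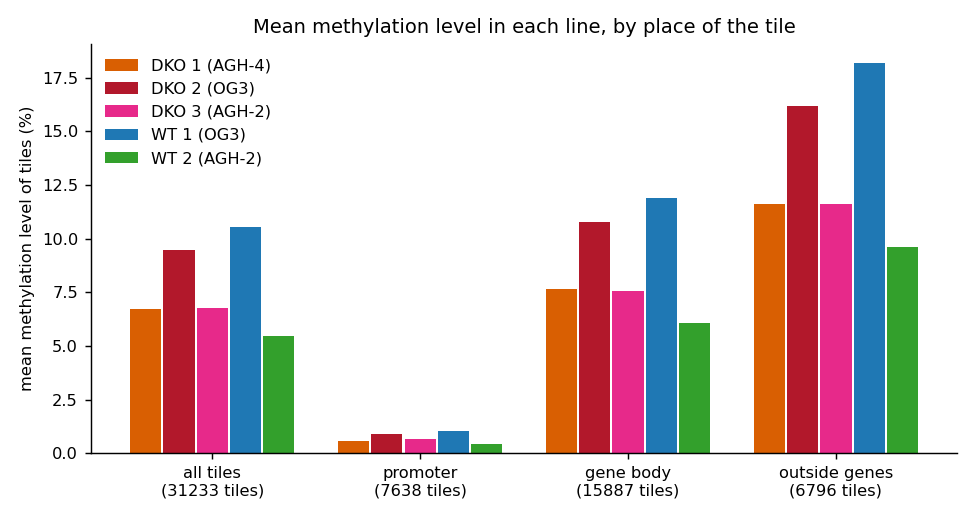
Mean methylation level (%, vertical axis from 0) over tiles in each of the 3 DKO and 2 WT lines, for all tiles and by place. In all 4 groups of bars WT replicate 1 is highest and WT replicate 2 lowest, with the DKO lines between them.

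What was alike in all 5 lines was the unmethylated part of the measured genome. Of 31233 tiles, 14497 (46.4%) were below 1% in every line and 18613 (59.6%) below 10%. All 5 lines lay within 10 points in 18830 tiles (60.3%), which was 95.6% of promoter tiles, 54.2% of those in gene bodies and 34.8% of those outside genes. Among the 9166 tiles with a mean of at least 10% it was 97, and among the 4930 with at least 20% it was 29. Most of the tiles that were alike thus had means below 10%. A tile below 10% in every line is within 10 points by its level alone, which held for 18613 of the 18830. The 60.3% and the shares by place thus follow the level of the tiles and do not measure agreement between DKO and WT lines. Of 20695 tiles below 10% in both WT lines, 89.9% were below 10% in all DKO lines, 116 had exactly 1 DKO line at 50% or more, and 0 had all 3 there.

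Tiles at 50% or more were shared in part between single lines and rarely among all 5. DKO replicates 1 and 2 shared 244, of 640 and 1180 such tiles. DKO replicate 2 and WT replicate 1 shared 465, of 1180 and 1624. WT replicates 1 and 2 shared 173, of 1624 and 379. Of these 173 tiles, 65 had a DKO mean of at least 50%, and 13 (7.51%) were at 50% or more in all 3 DKO lines. A mean absolute difference between tiles of 5.56 to 7.96 points separated the 6 pairs of a DKO and a WT line, against 6.36 to 7.11 for the 3 pairs of DKO lines and 7.70 for the 1 pair of WT lines. The correlation across tiles, which are not independent replicates, was 0.493 to 0.666 between DKO and WT lines, 0.506 to 0.627 among DKO lines and 0.569 between WT lines. So the pairs of a DKO and a WT line spanned the values found within the groups. Within 1 line the cytosines on opposite strands of the same CpG, measured at 1251 CpGs, differed by 9.29 to 12.4 points on average, and the same cytosines differed by 8.97 to 11.6 points between lines. At 20419 pairs of cytosines 2 bp apart, the gap was 1.03 to 1.73 points within a line and 1.58 to 2.15 points between lines. The source of this spread was not tested.

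No tile was called between the DKO and WT lines by edgeR's quasi-likelihood test. At an adjusted p under 0.05 it called 0 of 29763 tiles tested (0%), with the lowest adjusted p at 1. An unadjusted p under 0.05 was found in 662 tiles (2.22%). Without any difference a share near the threshold itself would be expected, so the edgeR test was conservative here. Its unadjusted p was 0.00179 for the Slc7a10 tile described below, at 0% in all DKO lines against 42.6% and 45.3% in WT lines. The 0 calls thus do not show that the DKO and WT lines are alike. By limma on percent levels 5 tiles were called (0.0168%), 1 higher and 4 lower in the DKO lines. That count was 6, 12 and 3 without DKO replicates 1, 2 and 3, and 426 and 1256 without WT replicates 1 and 2. DKO lines were above both WT lines in 2792 tiles (8.94%) and below both in 1870 (5.99%). A gap of at least 25 points between the group means occurred in 369 tiles with DKO higher and 508 with DKO lower, while the median absolute difference was 0.512 points.

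The interval around a difference was wider in tiles with a higher mean level. A 95% interval of DKO minus WT from limma lay wholly within 10 points of 0 for 17716 tiles (56.7%) and within 25 points for 21359 (68.4%). Both counts include 1470 tiles without variation between lines. Those were not fitted, and their difference and interval were set to 0, in the classes below as well. In the 16371 tiles with a mean below 1%, the interval extended a median of 0.118 points to each side and stayed within 10 points in 100% of tiles. From 1 to 5% (3252 tiles) it extended 8.96 points, and 93.2% of tiles stayed within 25 points. From 5 to 20% (6680 tiles) it extended 26.9 points and 25.7% stayed within 25, and from 20 to 50% (4653 tiles) 46.2 points and 4.90%. In the 277 tiles at 50% or more it extended 54.6 points, and 12 tiles stayed within 25. The classes rest on the mean over all 5 lines, so the lowest class cannot hold a wide gap, and a tile with a wide gap falls in a higher class. In tiles from 20 to 50% the SD between lines of a group was 17.9 points and the counting error of a line 1.24 points, both medians. That counting error takes reads as independent, which PCR copies are not, and the other sources of spread were not separated.

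**Figure D5:**
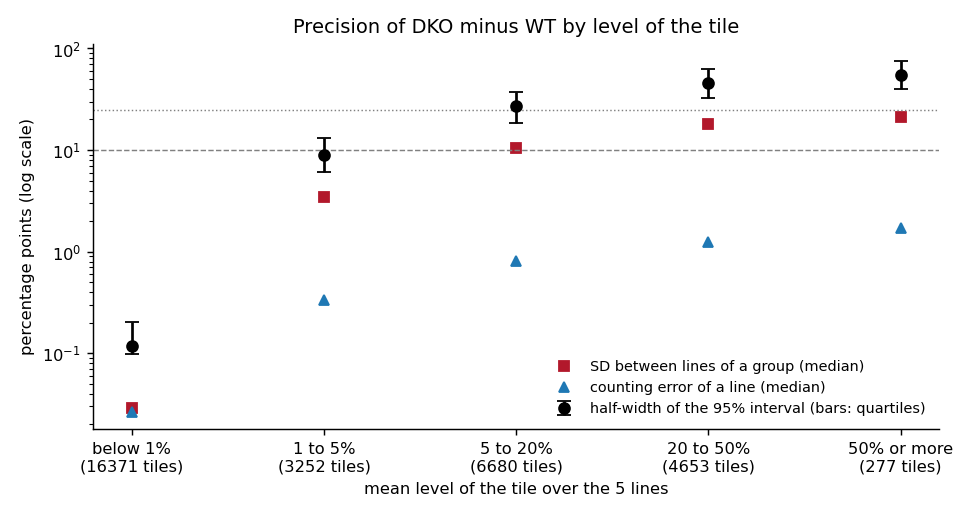
Percentage points (vertical log axis) against the mean level of the tile over the 5 lines: the distance the 95% interval of DKO minus WT extends to each side (black, median with quartiles), the SD between lines of a group (red) and the counting error with reads taken as independent (blue), with grey lines at 10 and 25 points. The interval widens from a median of 0.118 points below 1% to 54.6 points at 50% or more. The SD between lines exceeds the counting error in all classes, though narrowly below 1% (medians of 0.0293 and 0.0266 points).

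Tiles with the lowest unadjusted p among those without overlap were mostly near 0% in one group and low in the other. None passed the adjustment (edgeR, adjusted p = 1 for each of 10), so they are examples of the tail and not findings. Of the 5 with DKO lines higher, Amz1, which encodes a zinc metalloprotease, had the widest gap (chr5:140752001-140752500, within the gene, 4 positions). It was at 24.3%, 36.2% and 27.5% in DKO lines, against 0% and 0.0214% in WT lines. The other 4 lay at Scnn1b, a subunit of the epithelial sodium channel, Sarm1, an enzyme that degrades NAD in axons, Pcdh8, a protocadherin, and Rph3al, a regulator of exocytosis. Their DKO lines were between 0.282% and 6.53% and their WT lines between 0% and 0.0397%. Of the 5 with DKO lines lower, the widest gap was 16641 bp from Gcnt1, a glycosyltransferase gene (chr19:17309001-17309500, 6 positions), at 0%, 0.0210% and 0% in DKO lines, against 11.4% and 31.1% in WT lines. The other 4 lay at Crhr1, a receptor of corticotropin-releasing hormone, Diras1, a small GTPase, Bst2, the antiviral protein tetherin, and Junb, a subunit of the AP-1 transcription factor. In these, DKO lines stayed at or below 0.0781% and WT lines ran from 1.89% to 6.16%.

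The 5 tiles called by limma alone had lines of each group within a few points, and edgeR gave each an adjusted p of 1. Within Slc7a10, which encodes an amino acid transporter, the tile (chr7:35192501-35193000, 3 positions, at least 568 reads a line) was at 0% in all 3 DKO lines, against 42.6% and 45.3% in WT lines (limma adjusted p = 0.0436). Within Arl5c, an ARF-like GTPase gene, a tile (chr11:97995001-97995500) was at 0% in all 3 DKO lines, against 24.6% and 23.4% in WT lines (limma adjusted p = 0.0358). Within Xpnpep1, an aminopeptidase gene, a tile (chr19:53011501-53012000) was at 22.2%, 21.8% and 22.2% in DKO lines, against 0.113% and 0% in WT lines (limma adjusted p = 0.00698). These 3 separate the groups fully over 3 positions each. Junb and Arid3a, which encodes a DNA-binding protein, differed by -1.91 and -4.41 points. A further tile, singled out after its values were seen, was the only one at 50% or more in both WT lines and below 10% in all DKO lines. It lies within Cep250, a centrosome gene (chr2:155965001-155965500, 4 positions), at 0%, 4.30% and 0% in DKO lines, against 82.6% and 65.4% in WT lines (limma adjusted p = 0.475).

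The most methylated tiles among those with all lines within 10 points lay within genes or outside them, and 0 of the 9 classified ones touched a promoter sequence. Promoter tiles had means of 0.461% to 1.06% in single lines, so a choice by highest mean tends to leave them out. Of the 10 with the highest mean among tiles with all lines within 10 points, the first was 37464 bp from Parn (chr16:13500001-13500500, 3 positions). It was at 58.6%, 53.7% and 50.6% in DKO lines, against 53.5% and 56.8% in WT lines. The difference of -0.828 points had a 95% interval from -10.0 to 8.37 in limma. The others had means between 29.3% and 37.5%. The tile 46472 bp from Tcerg1l was at 36.0%, 31.3% and 37.3% in DKO lines, against 28.9% and 27.8% in WT lines. Its DKO lines thus lay above both WT lines, as in 8.94% of all tiles. Dnah2, an axonemal dynein gene, was at 33.2%, 27.2% and 28.7% in DKO lines, against 32% and 28.4% in WT lines, and Ttc28, Arhgap28, Mllt1 and Rab3il1 held further tiles of this kind. Outside genes lay 4 of the 10, and 1 was not classified by place.

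Other imprinted control genes mostly overlapped between the DKO and WT lines. Of 25 listed, 22 had at least 3 positions, with DKO lines above both WT lines in 2 (9.09%) and below them in 0, where 10.5% and 5.98% of all genes were. The median difference was 0.0138 points. The largest difference of the list was at Peg13, a noncoding RNA gene within Trappc9 with its own imprinted control region, at 38.3%, 19.9% and 33.4% in DKO lines, against 0% and 7.72% in WT lines, over 5 positions. The lowest was at Peg3, a paternally expressed zinc finger gene, at 12.1%, 53.7% and 17.4% in DKO lines, against 48.1% and 32.9% in WT lines. Snrpn, Plagl1, Slc38a4 and Mcts2 stayed below 1% in all 5 lines. So did Peg12 and Igf2r, the gene of the receptor that clears the Igf2 product.

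Genes whose products keep or remove methylation at imprints varied between the lines. Of 15 listed, 13 had at least 3 positions and 7 had all 5 lines within 10 points (53.8%), where 67.1% of all genes did. DKO lines were above both WT lines in 1 of the 13 (7.69%), Trim28, and below them in 0. Among all genes these shares were 10.5% and 5.98%, so the list lies near the background. Dnmt1, the maintenance methyltransferase, was at 16.9%, 38.4% and 5.68% in DKO lines, against 16.9% and 10.9% in WT lines, the highest difference of the 13 at 6.42 points. Zfp57, a zinc finger protein that protects imprints, had only 2 positions, at 16.6%, 21.4% and 38.7% in DKO lines, against 15.2% and 0% in WT lines. Ctcfl, a germ cell relative of CTCF, had the lowest of the 13 at -9.89 points, with 5.60%, 15% and 0.881% in DKO lines, against 27.0% and 7.09% in WT lines. Ctcf was below 2% in every line and Trim28, a corepressor bound by imprint-protecting zinc finger proteins, below 0.1%. Of the 9 genes of the imprinted network linked to H19 with at least 3 positions, Dlk1 was the only one without overlap (11.1%, lower in DKO lines, where 5.98% of all genes were).

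Markers of the labelled cell type were unmethylated or low in all lines. Of 13 pluripotency genes 9 had positions, and all 5 lines lay within 10 points in each of the 9, beside 67.1% of all genes. No line reached 10% at these 9 genes, so their low level alone put the lines within 10 points. Pou5f1, the transcription factor of the pluripotent state, was at 0.0688%, 2.13% and 0% in DKO lines, against 2.81% and 0% in WT lines, and Sox2 was below 0.1% in all lines. Nanog had no position measured in all 5 lines. Among 8 feeder fibroblast genes 2 had DKO lines below both WT lines (25%), where 5.98% of all genes did. These were Fn1, at 3.34%, 10.8% and 10.3% in DKO lines, against 18.5% and 19.7% in WT lines, and Col1a1, at 6.34%, 12% and 8.08% in DKO lines, against 17.6% and 13.5% in WT lines. Thy1 went the other way with overlap, at 15.9%, 12.1% and 8.04% in DKO lines, against 1.89% and 10.9% in WT lines. The median difference of the 8 genes was -0.0281 points. Among 5 germ cell genes with at least 3 positions 1 had DKO lines below both WT lines (20%). That gene, Ddx4, stayed below 4% in all lines. Asz1 went the other way with overlap, at 12.2%, 20.6% and 29.4% in DKO lines, against 17.4% and 7.90% in WT lines. Methylation at these genes does not measure how many feeder cells a library holds, and their part in the results was not tested.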

How the data were processed

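Per the labels' protocols, DNA was cut with MspI, ligated to methylated adapters, size-selected on a gel, treated with bisulfite and amplified. Bismark 0.12.2 and mm10 stand in the submitters' processing notes. How reads were trimmed or duplicates removed is not given in the sources used. The deposited files list cytosine positions with the counts of methylated and unmethylated reads, as the authors deposited them, and the methylation level as a deposited fraction, which equalled the ratio of the counts within 1e-09. Strand is not listed.

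Positions with at least 10 reads in all 5 lines were kept, and 500 bp tiles with at least 3 of them on chromosomes 1 to 19 and X, with levels from summed counts. No pair of lines was a copy, since at most 0.254% of shared positions had identical counts. Tiles were tested in edgeR 4.0.16 by its quasi-likelihood test (a term per library, a common dispersion of 0.953) in R 4.3.3, with Benjamini-Hochberg adjustment and a threshold of 0.05. Tiles without variation were not tested, and their difference and interval were set to 0. Intervals of 95% came from limma 3.58.1 on percent levels. Both tools were tested on simulated data. The simulated lines differed less from each other than these lines did in partly methylated tiles. That check thus does not give the power of either tool in these data. Single values were compared by exact permutation over lines. Genes are RefSeq of GRCm38.p6, the assembly of mm10, and promoter sequences are RefSeq's, which cover no gene of chromosome 18, so tiles there were not classified by place. The windows of both elements were set by distance from H19 and Meg3.

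Named tiles were the 5 in each direction with the lowest unadjusted edgeR p among tiles without overlap, as 0 were called, and the 10 most methylated among those alike. The members, lists and windows were chosen with earlier results of these data known. Alternatives changed the read minimum, positions per tile, tile size, tool, weights, window, line left out and pairing by line name. Sequence of the deleted elements and exons were not analysed here.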

Additional observations from a re-analysis of the deposited data

Results flagged for a closer look

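Between the lines that share a name, these means of DKO minus WT had opposite signs in OG3 (DKO replicate 2 minus WT replicate 1) and AGH-2 (DKO replicate 3 minus WT replicate 2), from 1 line in each group, and the difference between the names was not tested. The mean over positions differed by -0.980 points in OG3 and by 1.12 points in AGH-2. From summed reads it was -0.410 points in OG3 and 1.34 points in AGH-2, and over tiles -1.08 and 1.30 points. Within 1 Mb of the H19 DMR window the tile mean differed by -2.10 points in OG3 and by 3.93 points in AGH-2. Within 1 Mb of the IG-DMR window it was -3.99 points in OG3 and 2.22 points in AGH-2. Around both windows the contrast rests on weighting tiles alike, since summed reads gave the same sign in both names, with 0.310 points in OG3 and 0.329 in AGH-2 around the H19 DMR window and 2.40 and 1.30 points around the IG-DMR window. The passages of the OG3 pair were both 31, and those of the AGH-2 pair were 29 in the DKO and 18 in the WT line, so passage and line name cannot be told apart here.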

How the results depend on the processing

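No tile was called by edgeR with 20 or 5 reads per position, 5 positions or 1000 bp per tile, or without any 1 line (0 to 0 tiles), nor by limma on log2 ratios. On percent levels limma called 5 tiles, 2 with 20 reads, 4 with 5 reads, 1 with 5 positions and 2 with 1000 bp tiles. Without DKO replicates 1, 2 and 3 it called 6, 12 and 3 tiles. Without WT replicate 1 or 2, it called 426 and 1256 tiles, with the lone WT line assumed to vary like the DKO lines. With a block for the line name, which pairs 2 DKO lines with WT lines, edgeR called 2 tiles: Pcdh8 higher, and one 1354 bp from Rn18s-rs5, a copy of the ribosomal RNA genes, lower, with at least 1626509 reads a line that cannot be assigned to a copy. That fit leaves 1 residual degree of freedom, and under the same block limma called 0 tiles (lowest adjusted p = 0.562; 1150 tiles with an unadjusted p under 0.05), so limma lost its 5 calls there and made neither of the edgeR calls. Deviations of same-named lines correlated at 0.138 and 0.0742, against -0.138 to 0.0637 for a DKO and a WT line of different names. The deviations of 2 WT lines mirror each other, so these values are not independent. The labels do not state the descent of the lines.

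Signs of the small mean differences turned with several settings. The mean over positions was 0.282 points from summed reads and 0.0700 under the block, and ran from -2.64 to 1.96 with 1 line left out, above 0 without DKO replicate 1 (0.0700), DKO replicate 3 (0.0791) or WT replicate 1 (1.96). The tile mean was 0.113 points under the block and ran from -2.90 to 2.21, above 0 without the same lines (0.113, 0.107 and 2.21). The H19 neighbourhood gave 0.414 points within 5 Mb and 0.319 under the block, and from -0.749 to 0.698 with 1 line left out, above 0 without the same lines (0.319, 0.159 and 0.698). The IG-DMR neighbourhood gave -3.23 points within 100 kb and -0.259 within 5 Mb, and from 0.170 to 3.37 with 1 line left out. Interval and agreement counts stayed within 1.5 times, with 17281 to 17639 and 19984 to 20649 tiles within 10 and 25 points and 19308 to 19990 alike with 1 line left out. Under the other settings they were 12991 to 18458, 14544 to 22372 and 13505 to 19637, with fewer tiles formed under some. As shares of the tiles formed, those within 10 and 25 points rose from 56.7% and 68.4% to 76.5% and 85.6% with 5 positions per tile. The remaining settings with all lines gave 52.3% to 58.9% and 64.8% to 70.6%. Reads in the IG-DMR window were 69 in DKO lines in the wide window, and 0 in DKO and 140 in WT lines in the narrow one. The cause of these changes was not tested. Of the 63 named genes and tiles, 273 of 315 values with 1 line left out and 130 of 134 others kept their sign. Depth limits the windows of both elements, where several lines had 0 reads.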
